A study of Mus musculus with 8 samples.

Results

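The genes described here carry T cell receptor signals inside the cell or stand beside the receptor at the cell surface. They are Zap70, Lat, Sit1, Cd5, Cd6, Cd28, Thy1, Cd4, Cd8a and Cd8b1, chosen by name, and each is read through the array probe sets annotated to that 1 symbol alone. These 10 genes hold 14 such probe sets, of 17097 genes and 45141 probe sets in all. All 10 were among the 11583 genes bright enough to be tested: on 2 or more of the 8 arrays they exceeded that array's median signal. Zap70, Sit1, Cd5, Cd28 and Thy1 lay above it on all 4 preproNK arrays but below it on 1 to 4 of the ALP arrays, so for these the preproNK arrays alone could have met the filter.

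Nfil3 is a basic leucine zipper transcription factor that natural killer (NK) cell development depends on, and the study asked at which stage its loss acts. RNA of 2 sorted bone marrow populations was measured on Affymetrix arrays in wild-type (WT) and Nfil3 knockout (KO) mice: all-lymphoid progenitors (ALP), an early stage open to all lymphoid fates, and preproNK cells, a later stage placed on the way to NK cells. All 4 groups (WT ALP, KO ALP, WT preproNK, KO preproNK) were sorted by flow cytometry from bone marrow depleted of lineage-positive cells, carried the Id2-GFP reporter, and were lysed directly without culture. Each group had 2 arrays, replicate 1 and replicate 2, and the study processed all replicates of 1 number on the same date. The labels give neither the age of the mice nor how many stand behind an array, so the p-values cover only how far 2 samples of a group lie apart, and that spread may be technical. In such bulk samples, fewer cells of a type and less RNA per cell cannot be told apart.

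When a T cell receptor binds its ligand, the coreceptor CD4 or CD8 brings the kinase Lck to the receptor, the CD3 and zeta chains are phosphorylated, and the kinase ZAP-70 docks there and phosphorylates the membrane scaffold LAT. CD28 adds a costimulatory signal, while CD5, CD6 and the adaptor SIT restrain or tune the response. NK cells use ZAP-70 and LAT downstream of their own activating receptors, and Thy1 is found on innate lymphoid cells as well as on T cells, so several of these genes are not markers of T cells alone.

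The values are deposited log2 signals. The array medians lay between 3.93 and 4.27, and a value below its array's median is called near background here. Of 6 ALP markers with a probe set, 6 in KO and 4 in WT were higher on both ALP arrays than on both preproNK arrays, Flt3, Dntt and Cd34 in both genotypes. In WT, Kit (5.54 and 3.85 in ALP, 4.48 and 3.21 in preproNK) and Rag1 (4.01 and 3.69, 3.25 and 4.38) overlapped. Of the preproNK markers, Id2 and Zbtb16 were higher on all 4 preproNK arrays. Nfil3 itself read 6.89 and 5.50 in WT ALP, 3.41 and 4.15 in KO ALP, 4.75 and 4.74 in WT preproNK and 3.84 and 3.57 in KO preproNK, so every KO array lay below every WT array. Whether the sequence read by the Nfil3 probe set is among that removed in the KO was not examined. The WT preproNK replicate 2 array stood apart: its values had an SD of 1.39 against 1.55 to 1.88 on the others, 310 of its genes reached a value of 8 against 682 to 1498, and it correlated with its group's other array at r = 0.62 and most closely with WT ALP replicate 2 (r = 0.75). Differences between genotypes in preproNK that rest on this array are therefore given with and without it, or within the replicate 1 pair alone.

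The promoters of the genes that moved together are shown first, beside that of Cd8a, which did not move with them. Windows from 250 bases before to 50 bases after an annotated start (RefSeq, build GRCm38.p6) were matched for 5 of the 10 genes: Zap70 (3 windows), Lat, Sit1, Cd5 and Cd8a. Capitals mark matches, on either strand, to 7 short motif forms. For ETS factors these are AGGAAG or, in a second form, CCGGAA. For RUNX factors the form is TGTGGT, for E proteins the E-box CAGGTG, for GATA factors AGATAA, for TCF or LEF factors CTTTGA, and for Nfil3 TTANGTAA. No matches share a base. Each line gives the strand that is read, 5′ to 3′.
Sit1, chr4:43483660-43483959, minus strand: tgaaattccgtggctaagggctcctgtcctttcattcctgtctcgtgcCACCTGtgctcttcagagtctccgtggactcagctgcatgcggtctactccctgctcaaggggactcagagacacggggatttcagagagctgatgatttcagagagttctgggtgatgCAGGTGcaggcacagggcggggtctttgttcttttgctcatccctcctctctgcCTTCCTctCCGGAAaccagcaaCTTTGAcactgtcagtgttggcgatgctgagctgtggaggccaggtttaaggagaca
Cd5, chr19:10738925-10739224, minus strand: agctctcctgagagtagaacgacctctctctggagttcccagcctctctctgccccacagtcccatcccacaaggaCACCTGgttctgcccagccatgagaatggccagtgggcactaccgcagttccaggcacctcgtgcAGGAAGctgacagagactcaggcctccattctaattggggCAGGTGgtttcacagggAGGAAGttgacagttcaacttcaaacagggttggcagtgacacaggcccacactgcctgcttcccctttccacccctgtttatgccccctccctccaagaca
Zap70, chr1:36761548-36761847, plus strand: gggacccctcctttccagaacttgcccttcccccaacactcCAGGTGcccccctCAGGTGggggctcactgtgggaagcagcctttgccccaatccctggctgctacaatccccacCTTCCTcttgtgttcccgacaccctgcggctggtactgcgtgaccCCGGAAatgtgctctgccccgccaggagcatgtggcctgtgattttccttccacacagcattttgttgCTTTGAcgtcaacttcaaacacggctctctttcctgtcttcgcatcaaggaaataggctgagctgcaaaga
Cd8a, chr6:71373177-71373476, plus strand: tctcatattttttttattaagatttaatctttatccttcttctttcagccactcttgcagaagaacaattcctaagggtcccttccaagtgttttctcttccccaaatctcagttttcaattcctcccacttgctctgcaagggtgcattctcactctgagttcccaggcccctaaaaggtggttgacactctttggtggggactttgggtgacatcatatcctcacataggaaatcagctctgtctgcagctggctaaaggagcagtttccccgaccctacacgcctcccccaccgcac

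The form AGGAAG or its reverse CTTCCT was found in 5 of the 7 windows, of Sit1, Cd5, Zap70 and Lat, where 35.4% of 32851 promoter windows hold it. CAGGTG or its reverse CACCTG was found in 4 of the 7 windows, of Sit1, Cd5 and Zap70, against 20.2% of all windows. There were 2 matches in each of the 3 printed windows of these genes. The second ETS form CCGGAA (14.9% of all windows) was found in Sit1 and Zap70, as was the TCF or LEF form CTTTGA (16.0%). In Sit1 both ETS forms and the TCF or LEF form lay close together, beginning 29, 21 and 7 bases before the start. In Lat, ACCACA, the reverse of the RUNX form TGTGGT (16.8% of all windows), began 5 bases before the start. The window of Cd8a held none of the 7 forms, no window of these genes held AGATAA (11.2% of all windows) or TTANGTAA (2.32%), and a match in letters is no measure of binding. The forms were set with these promoter sequences in view, so which windows hold them is a description only. A link between the motifs and the pattern over the arrays was not tested.

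Across the 8 arrays, Zap70, Lat, Sit1, Cd5, Cd6, Cd28, Thy1 and Cd4 were all highest in KO preproNK, and in none of the 8 did a KO preproNK array fall to the level of a WT preproNK array. Cd8a and Cd8b1 were not. With the mean of the other 9 genes, each centred on its own mean, over the same 8 arrays, r was 0.99 for Sit1 and 0.99 for Cd4, 0.91 for Lat, −0.063 for Cd8a and 0.17 for Cd8b1. These points share arrays, 2 to a group, so r is a description.

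**Figure D1:**
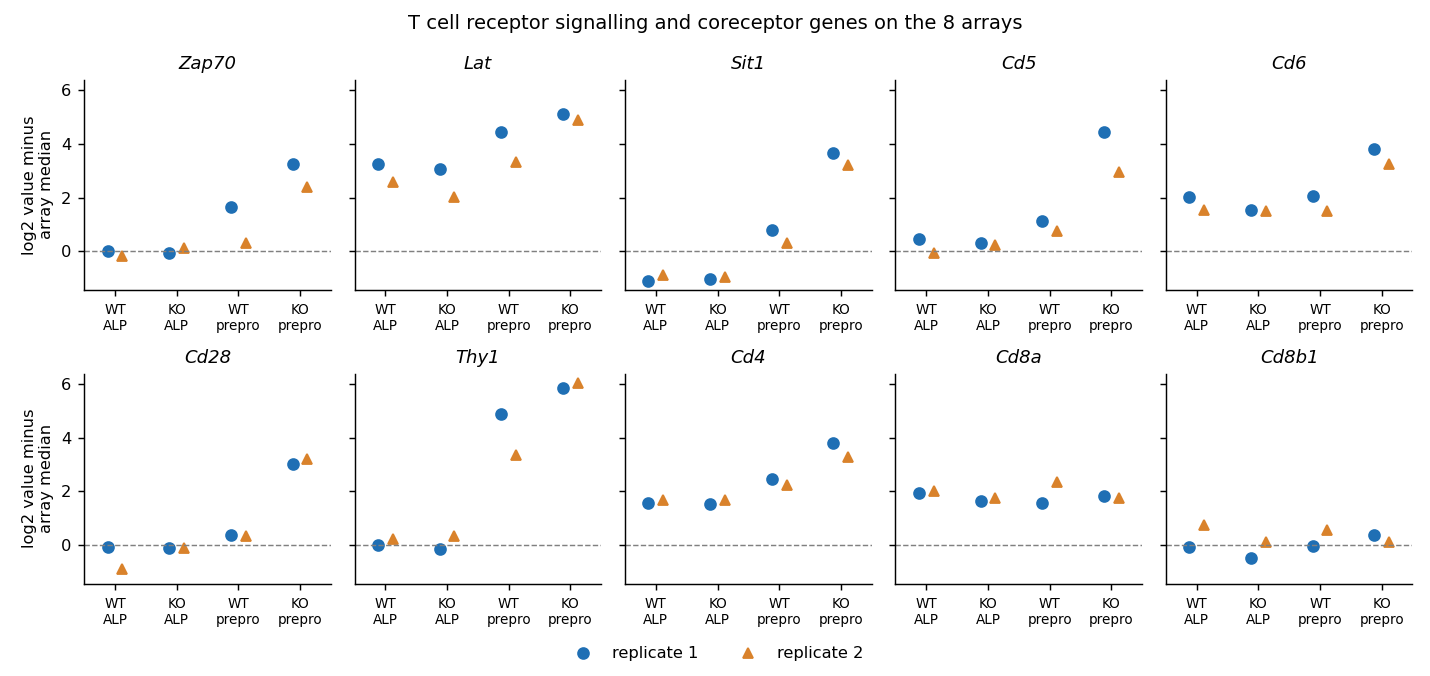
Each panel plots 1 gene's deposited log2 value minus its array's median over all probe sets (vertical axis) by group (horizontal axis), with a circle for replicate 1 and a triangle for replicate 2; the dashed line is the array median. In the first 8 panels both KO preproNK arrays lie above both WT preproNK arrays, while the groups of Cd8a and Cd8b1 overlap there.

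The genes that act next to the receptor are given first. Zap70, the kinase that docks on the phosphorylated receptor, read 3.98 and 3.95 in WT ALP, 3.88 and 4.13 in KO ALP, 5.68 and 4.56 in WT preproNK and 7.24 and 6.38 in KO preproNK. It was at the array median in ALP of both genotypes and highest in KO preproNK, and its WT preproNK arrays were 1.12 apart, with replicate 2 the lower. Its KO preproNK mean was 1.69 above WT preproNK (SE 0.49, 3.23-fold).

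Lat, the membrane scaffold that ZAP-70 phosphorylates, read 7.22 and 6.70 in WT ALP, 7.0 and 6.04 in KO ALP, 8.47 and 7.60 in WT preproNK and 9.08 and 8.88 in KO preproNK. It was well above the array median on all 8 arrays, ALP included, and WT preproNK replicate 2 lay 0.88 below replicate 1. The KO preproNK mean was 0.95 above WT preproNK (SE 0.48, 1.93-fold), the smallest difference of the 8 genes whose preproNK arrays did not overlap.

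Sit1, which encodes a transmembrane adaptor that recruits the phosphatase SHP2 and dampens receptor signals, read 2.88 and 3.24 in WT ALP, 2.90 and 3.07 in KO ALP, 4.81 and 4.58 in WT preproNK and 7.65 and 7.23 in KO preproNK. It was near background on all 4 ALP arrays, slightly above the median in WT preproNK and far above it in KO preproNK. Both replicate pairs gave a like difference between genotypes in preproNK, 2.84 for replicate 1 and 2.64 for replicate 2, with a mean of 2.74 (SE 0.36, 6.69-fold).

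The scavenger-receptor proteins CD5 and CD6 sit in the same membrane complexes as the receptor. Cd5, an inhibitory coreceptor whose surface level in T cells follows the strength of receptor signals, read 4.42 and 4.08 in WT ALP, 4.25 and 4.23 in KO ALP, 5.13 and 5.02 in WT preproNK and 8.41 and 6.94 in KO preproNK. The 2 KO preproNK arrays were 1.47 apart, yet the lower of them was above every other array, and the mean difference from WT preproNK was 2.60 (SE 0.50, 6.07-fold).

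Cd6, a receptor of the adhesion molecule ALCAM, read 5.99 and 5.68 in WT ALP, 5.46 and 5.51 in KO ALP, 6.06 and 5.77 in WT preproNK and 7.77 and 7.25 in KO preproNK. WT preproNK overlapped with WT ALP, and only KO preproNK stood above the other groups. The KO preproNK mean was 1.59 above WT preproNK (SE 0.37, 3.01-fold).

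Cd28, the costimulatory receptor for CD80 and CD86, read 3.91 and 3.23 in WT ALP, 3.81 and 3.89 in KO ALP, 4.38 and 4.60 in WT preproNK and 7.0 and 7.20 in KO preproNK on its brighter probe set. It was near background in ALP, just above the median in WT preproNK and about 3 log2 units above it in KO preproNK. The replicate pairs gave differences of 2.63 and 2.61 between genotypes in preproNK (mean 2.62, SE 0.38, 6.13-fold). Its second probe set, 1417597_PM_at, was near background on every array but the 2 of KO preproNK, at 4.57 and 4.74.

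Thy1, a surface glycoprotein linked to the membrane by a lipid anchor, read 3.97 and 4.38 in WT ALP, 3.80 and 4.35 in KO ALP, 8.90 and 7.63 in WT preproNK and 9.83 and 10.03 in KO preproNK. It differed most between the populations of all 10 genes, and in WT preproNK replicate 2 was 1.27 below replicate 1. The KO preproNK mean was 1.67 above WT preproNK (SE 0.49, 3.18-fold), with pairs of 0.93 and 2.40.

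The coreceptors split. Cd4, which binds MHC class II, read 5.53 and 5.81 in WT ALP, 5.46 and 5.71 in KO ALP, 6.49 and 6.49 in WT preproNK and 7.77 and 7.29 in KO preproNK on its brighter probe set. The KO preproNK mean was 1.04 above WT preproNK (SE 0.36, 2.05-fold), and no array of 1 group reached the other. The second Cd4 probe set, 1427779_PM_a_at, lay between 4.24 and 4.44 on 6 arrays and read 6.33 and 4.70 in KO preproNK, so there the difference came mostly from replicate 1.

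Cd8a, the alpha chain of the MHC class I coreceptor, read 5.89 and 6.13 in WT ALP, 5.57 and 5.78 in KO ALP, 5.59 and 6.61 in WT preproNK and 5.81 and 5.75 in KO preproNK. The preproNK groups overlapped, the pairs had opposite signs (0.22 and −0.85), and the difference was −0.32 with a 95% interval from −1.30 to 0.66. Of its other probe sets, 1451673_PM_at was above the median on 1 array (KO preproNK replicate 1, at 4.21) and 1444078_PM_at was near background on all 8.

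Cd8b1, the beta chain that can pair with the alpha chain, read 3.91 and 4.86 in WT ALP, 3.46 and 4.13 in KO ALP, 3.99 and 4.81 in WT preproNK and 4.37 and 4.14 in KO preproNK. All groups overlapped except the preproNK and ALP arrays of the KO, which lay 0.0062 apart at their closest. The KO and WT preproNK groups differed by −0.15, with an interval from −1.28 to 0.99, so these arrays exclude no change within that interval.

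**Figure D2:**
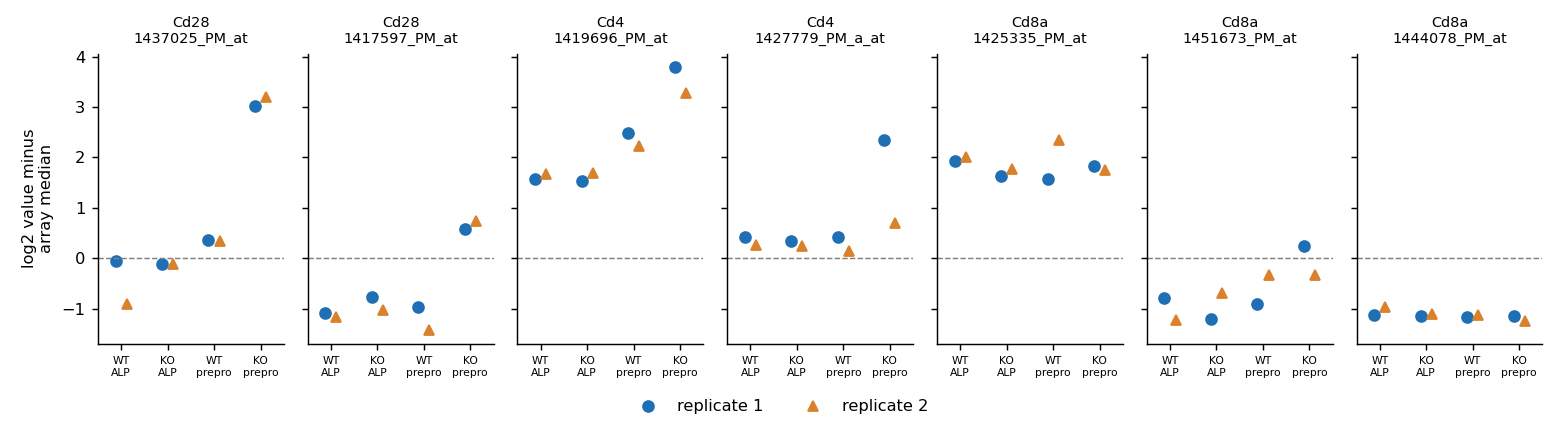
Each panel plots 1 probe set of Cd28, Cd4 or Cd8a as its deposited log2 value minus the array's median (vertical axis) by group (horizontal axis), with circles for replicate 1 and triangles for replicate 2. Both Cd28 probe sets and both Cd4 probe sets are highest in KO preproNK, with the 2 arrays of that group far apart on the second Cd4 probe set. No Cd8a probe set separates the groups as clearly. On 1451673_PM_at the replicate 2 arrays of KO and WT preproNK lie nearly level, at −0.335 and −0.342.

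The first comparison asked what loss of Nfil3 did to these genes in preproNK cells. Over the 10 genes the median difference, KO minus WT, was 1.63 on the log2 scale, beside 0.15 over all genes tested; 8 of 10 were higher on both KO arrays than on both WT arrays, and 7 of 10 by at least 1 log2 unit on average. Of all genes tested, 22.7% had non-overlapping groups in that direction and 16.3% differed by at least 1. None of the 10 passed limma's test at an adjusted p under 0.05 (0% of all genes passed), with adjusted p-values of 0.16 for Sit1, 0.17 for Cd28, 0.31 for Cd5, 0.43 for Cd6, 0.61 for Zap70, Lat, Thy1 and Cd4, 0.71 for Cd8a and 0.88 for Cd8b1. At an unadjusted p under 0.05, limma gave 522 genes higher (4.51%), 7 of the 10 among them, namely all but Lat, Cd8a and Cd8b1, and 103 lower (0.889%), none of the 10 among them.

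Fitted with the replicate number as a block, since that number marks a shared processing date, limma called Sit1 higher (adjusted p = 0.046), 1 of 10 genes beside 0.0863% of all genes tested. Cd28 (adjusted p = 0.060 in limma's blocked fit) and Cd5 (0.086) did not pass. Without WT preproNK replicate 2 and with the block, limma called Sit1 (2.61, adjusted p = 0.038), Cd28 (2.79, 0.035) and Cd5 (2.85, 0.048), while the differences of Thy1 (0.84, 0.76) and Zap70 (1.24, 0.52) were smaller. That fit called 27 genes higher and 20 lower of all genes tested, and it assumes that the lone WT preproNK array varies like the other groups. Without that array and without the block, limma called none of the 10 and no other gene. Without WT preproNK replicate 1, so with the array that stood apart as the only one of its group and assumed to vary like the others, limma called 6 of the 10, Zap70, Sit1, Cd5, Cd6, Cd28 and Thy1, together with 2013 genes higher and 519 lower of all genes tested.

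Within the replicate 1 pair alone, which does not involve the array that stood apart, Cd5 (3.28), Sit1 (2.84) and Cd28 (2.63) ranked 3, 7 and 15 of 11583 genes by KO minus WT. In this pair 6 of 10 genes were higher in KO by at least 1 log2 unit, beside 2.88% of all genes, and these were Zap70, Sit1, Cd5, Cd6, Cd28 and Cd4. In the replicate 2 pair 7 of 10 were, beside 32.1% of all genes, with Lat (1.29) and Thy1 (2.40) among them and Cd4 (0.80) not. Cd5, Sit1 and Cd28 ranked 1617, 649 and 679 of 11583 genes in that pair. A single pair has no replicate and carries no test. The difference of Thy1 without WT preproNK replicate 2 was 1.03, that of Lat 0.51 and that of Zap70 1.13, against 1.67, 0.95 and 1.69 with it, whereas Sit1 (2.63), Cd5 (2.54) and Cd28 (2.73) moved little.

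**Figure D3:**
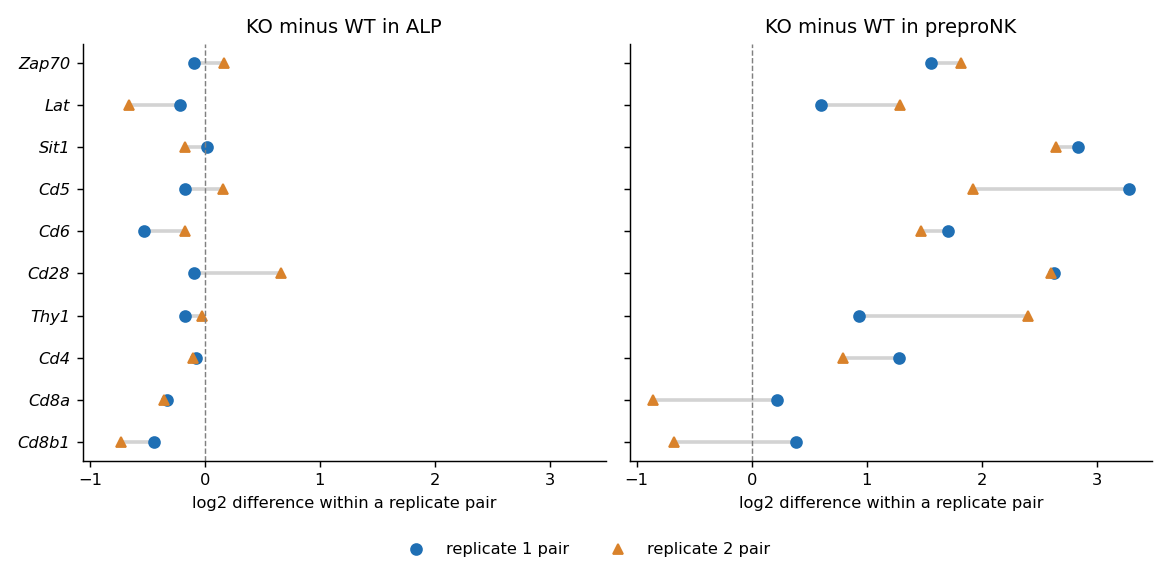
For each gene (vertical axis) the plots give KO minus WT on the log2 scale (horizontal axis) within the replicate 1 pair (circle) and the replicate 2 pair (triangle), in ALP on the left and preproNK on the right, with a grey line joining the pairs. In preproNK 8 genes lie to the right of 0 in both pairs, between 0.60 and 3.28, and Cd8a and Cd8b1 lie on either side of 0; in ALP the pairs lie between −0.73 and 0.66.

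The summed markers of T cells, gamma delta T cells and NK cells were also higher on the KO preproNK arrays than on the WT ones, while those of innate lymphoid precursors and of B cells overlapped. For T cells (the CD3 and zeta chain genes Cd3d, Cd3e, Cd3g and Cd247 together with Bcl11b, a transcription factor of the T lineage, 5 of 8 listed markers with a probe set), the sum of levels above the array median was 1.68 to 2.88 in WT ALP, 1.25 to 1.41 in KO ALP, 9.24 to 19.4 in WT preproNK and 26.3 to 27.9 in KO preproNK, and all 5 lay above the median on each preproNK array. Bcl11b alone overlapped between the genotypes, at 8.69 and 6.94 in WT preproNK and 8.82 and 8.21 in KO preproNK. For gamma delta T cells (3 markers of 7) it was 0.20 to 6.06 in WT preproNK, with WT replicate 2 close to the ALP arrays, and 10.9 to 12.2 in KO preproNK. For NK cells (9 markers of 10) it was 6.15 to 9.90 in WT preproNK and 19.5 to 19.7 in KO preproNK. Of the 8 NK markers tested, 4 were higher on both KO arrays than on both WT arrays, beside 22.7% of all genes. Eomes (4.04 and 5.73 in WT, 4.38 and 4.46 in KO), Prf1 and Gzma overlapped. Ncr1, near background on all 8 arrays, was lower in KO (3.28 and 3.28 against 3.89 and 4.01). For innate lymphoid precursors and ILC2 (5 markers of 7) it was 6.01 to 21.3 in WT preproNK and 14.7 to 15.5 in KO preproNK, and for B cells (5 markers of 6) −1.19 to 2.24 and 0.13 to 0.39. The part of these cell types in the differences of the 10 genes was not tested.

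In ALP the same comparison gave small differences. The differences, KO minus WT, ran from −0.59 for Cd8b1 to 0.28 for Cd28, with a median of −0.093 beside 0.065 over all genes tested. Limma called none of the 10 (0% of all genes tested passed, and at an unadjusted p under 0.05 there were 4 genes higher, 0.0345%, and 1 lower, 0.00863%, none of the 10 among them), and the adjusted p was 1.00 for each. Cd6 and Cd8a were lower on both KO arrays than on both WT arrays, by 0.35 and 0.34 on average, which is 2 of 10 genes beside 7.4% of all genes, and the 95% intervals of both spanned 0. Lat, Cd6, Thy1, Cd4, Cd8a and Cd8b1 were lower in KO in both replicate pairs, 6 of 10 beside 25.3% of all genes. In limma's fit each gene had 1 spread shared by all 4 groups. The WT preproNK arrays, which lay far apart, therefore also entered the intervals and p-values in ALP. With this spread and 2 arrays a group, the interval of a difference was about 1 log2 unit wide on either side, for Sit1 from −0.91 to 0.76. Fitted on the ALP arrays only, limma again called none of the 10 and no other gene.

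The difference between the knockout effects in preproNK and ALP was tested directly as an interaction. It was 2.82 for Sit1 (SE 0.51), with 2.82 in each replicate pair, 2.61 for Cd5 (SE 0.71), 2.33 for Cd28 (SE 0.53) and 1.94 for Cd6 (SE 0.52), and the median over the 10 was 1.71 beside 0.082 over all genes. Of the 10, 8 had an interaction of at least 1 log2 unit in the direction of a larger KO minus WT difference in preproNK, beside 9.69% of all genes. None of the 10 passed limma's test (adjusted p = 1.00 for each, 0% of all genes passed), and 168 genes were higher at an unadjusted p under 0.05 (1.45%), 6 of the 10 among them. Without WT preproNK replicate 2 the median was 1.13.

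The populations were then compared within each genotype. In WT, Thy1 rose from ALP to preproNK by 4.09 (SE 0.49, 17.1-fold, limma adjusted p = 0.040), and it was the only 1 of the 10 called, where 0.0345% of all genes tested (4) were called higher and 0.0604% (7) lower. Sit1 was 1.63 higher (adjusted p = 0.23), Zap70 1.15 (0.65), Lat 1.07 (0.70), Cd28 0.92 (0.63), Cd5 0.83 (0.87) and Cd4 0.82 (0.69). These 6 and Thy1 had preproNK arrays that did not overlap with ALP, 7 of 10 beside 9.73% of all genes, and Sit1 and Cd28 were near background on both WT ALP arrays, so with values below the array median set to it their differences were at least 0.65 (1.57-fold) and at least 0.44 (1.36-fold). Cd6 (0.08), Cd8a (0.09) and Cd8b1 (0.02) were level. The replicate 1 pair and the pair with WT preproNK replicate 2 gave 1.70 and 0.61 for Zap70, and 0.47 and 1.37 for Cd28. The median over the 10 was 0.87 beside −0.047 over all genes. Another scaling changed the split of all calls, to 41 higher and 29 lower with quantile normalization and to 0 and 3 with arrays centred on their medians.

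The call of Thy1 in WT did not hold in every setting. It passed with the replicate block (limma adjusted p = 0.023, where 0.268% of all genes were called higher) and without either WT preproNK array (4.73, adjusted p = 0.0041, without replicate 2 and 3.46, 0.015, without replicate 1). It did not pass when any 1 of the other 6 arrays was left out, with arrays centred on their medians, with array weights, with no filter on dim genes, with every probe set as its own feature or with only the WT arrays fitted. Over the 16 settings the difference lay between 3.46 and 4.92 and the adjusted p between 0.00022 and 0.58. With the block and without WT preproNK replicate 2, Sit1 was called too (1.77, adjusted p = 0.040).

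In the KO, 7 of 10 genes rose from ALP to preproNK in limma's test, where 1.22% of all genes tested were called higher and 0.535% lower. Thy1 rose by 5.86 (SE 0.49, adjusted p = 0.0036), Sit1 by 4.45 (SE 0.36, 0.0031), Cd5 by 3.43 (SE 0.50, 0.020), Cd28 by 3.25 (SE 0.38, 0.0085), Zap70 by 2.81 (SE 0.49, 0.036), Cd6 by 2.02 (SE 0.37, 0.042) and Cd4 by 1.95 (SE 0.36, 0.044). Sit1 and Cd28 were near background on both KO ALP arrays, so with values below the array median set to it their changes were at least 11.1-fold and at least 8.77-fold. Lat was 2.46 higher (SE 0.48, adjusted p = 0.055) and passed with the replicate block (0.0086), which made 8 of 10 genes beside 2.59% of all genes. Cd8b1 (0.46) and Cd8a (0.11) had an adjusted p of 1.00.

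In that comparison 9 of 10 genes had preproNK arrays above both ALP arrays, beside 22.2% of all genes, and the median difference was 2.63 beside −0.0042. The calls needed all 4 KO arrays: none held when any 1 of them was left out, which leaves a single array in its group. Nearly all calls among all genes tested were lost then too, so the loss is not particular to the 10. The median difference was 2.81 without KO ALP replicate 1 and 2.50 without KO ALP replicate 2. It was 2.37 without KO preproNK replicate 1 and 2.85 without KO preproNK replicate 2. With arrays centred on their medians, limma called 4, Sit1, Cd5, Cd28 and Thy1, beside 90 genes higher and 26 lower of all genes tested. The calls narrowed to the same genes when 1 of the WT ALP arrays was left out, and those over all genes fell too. With array weights, and with only the KO arrays fitted, limma called 8 of the 10, all but Cd8a and Cd8b1. Over all genes tested these fits called 540 higher and 362 lower, and 746 higher and 488 lower. The WT and KO comparisons of the populations share no arrays. Each of them shares arrays with both genotype comparisons, so their values are set side by side and not read as separate evidence.

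**Figure D4:**
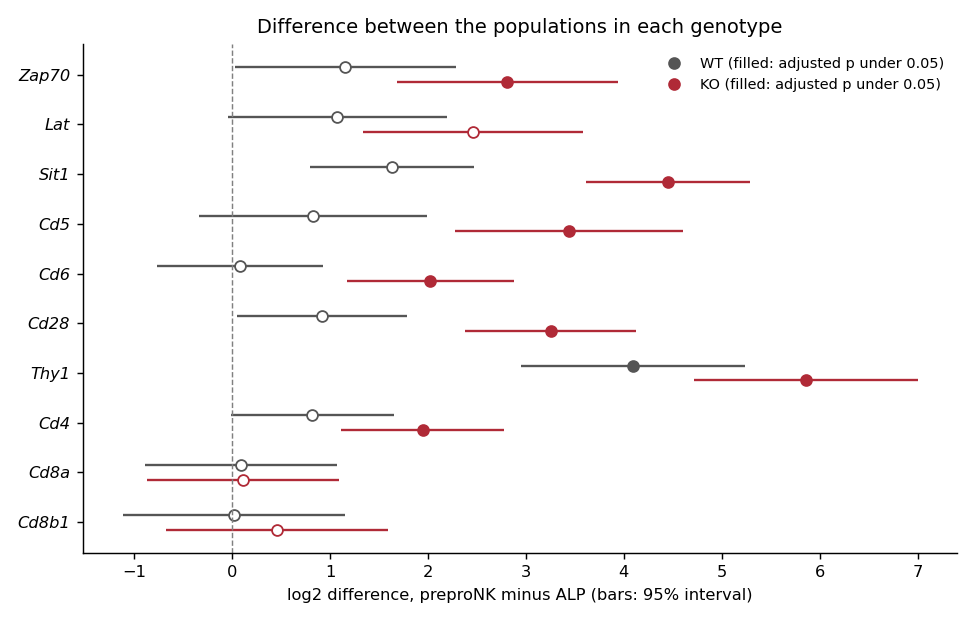
For each gene (vertical axis) the plot gives the difference preproNK minus ALP on the log2 scale (horizontal axis) in WT (grey) and KO (red), with the 95% interval of limma's fit as a bar and a filled point where the adjusted p was under 0.05. Thy1 is filled in both genotypes, at 4.09 and 5.86; Zap70, Sit1, Cd5, Cd6, Cd28 and Cd4 are filled in the KO alone, and every KO point lies to the right of its WT point.

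Other genes of the pathway were followed in 3 lists. The median of all genes, KO minus WT in preproNK, was 0.15 and, without WT preproNK replicate 2, 0.0059. Of 24 kinases, adaptors and downstream factors, 20 were tested, and limma called none between genotypes in preproNK. At an unadjusted p under 0.05, 4 were higher and 0 lower, beside 4.51% and 0.889% of all genes. The median difference of the 20 was 1.05, or 0.35 in the replicate 1 pair and 0.25 without WT preproNK replicate 2. The smallest p-values were those of the Tec family kinase Txk (1.53, adjusted p = 0.61, and 0.96 without that array) and the transcription factor Nfatc1 (1.68, 0.61, and 0.92 in the replicate 1 pair). In the KO, 3 of the 20 rose from ALP to preproNK and none fell: Rasgrp1, a Ras exchange factor activated by diacylglycerol, by 5.38 (limma adjusted p = 0.0085), Txk by 3.87 (0.0085) and Prkcq, the kinase PKC-theta, by 3.23 (0.042). In WT none of the 20 was called, with 7 higher and 0 lower at an unadjusted p under 0.05 (2.72% of all genes higher and 4.64% lower). Rasgrp1 was 3.80 higher there (limma adjusted p = 0.11), with 5.09 in the replicate 1 pair and 2.50 in the pair with WT preproNK replicate 2. With the replicate block limma called 5 of the 20 in the KO and 1 in WT, Rasgrp1 (adjusted p = 0.047).

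Of 14 inhibitors of the pathway, 13 were tested. Limma called none between genotypes in preproNK. At an unadjusted p under 0.05, 2 were higher and 0 lower, beside 4.51% and 0.889% of all genes. The median was 0.67, or 0.26 in the replicate 1 pair and 0.034 without WT preproNK replicate 2. The smallest p-values were those of Ptpn6, which encodes the phosphatase SHP-1 (2.31, adjusted p = 0.61), and Dgka. Dgka, a kinase that removes diacylglycerol, was 1.40 higher (adjusted p = 0.61), or 0.57 without WT preproNK replicate 2. Ptpn6 read 6.75 and 4.57 in WT preproNK and 8.0 and 7.94 in KO preproNK, so WT preproNK replicate 2 was far below the other 3 arrays, and without it the difference was 1.22. In the KO, Dgka rose by 3.67 from ALP to preproNK (limma adjusted p = 0.028), 1 of 13. With the replicate block limma called 2 of the 13 in the KO and 1 in WT, Dgka (adjusted p = 0.047).

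Of 11 further costimulatory and adhesion receptors, 9 were tested. Limma called none between genotypes in preproNK. At an unadjusted p under 0.05, 3 were higher and 0 lower, beside 4.51% and 0.889% of all genes. The median was 0.81, or 0.51 in the replicate 1 pair and 0.44 without WT preproNK replicate 2. Cd7 was 1.86 higher (limma adjusted p = 0.34) and Cd2, the receptor of CD48, 3.25 higher (0.44). Cd2 read 7.73 and 5.36 in WT preproNK and 10.02 and 9.56 in KO preproNK, and its difference without WT preproNK replicate 2 was 2.06. From ALP to preproNK, Icos, a costimulatory receptor related to CD28, rose in both genotypes, by 3.97 in WT (limma adjusted p = 0.034) and 4.01 in KO (0.0085). Cd2 (5.54, limma adjusted p = 0.015) and Cd7 (3.17, 0.0089) rose in the KO. The call of Icos in WT passed in 6 of the 16 settings. Without any 1 of the 4 KO arrays the calls of these list genes in the KO did not hold, and nearly all those among all genes tested were lost too. Icos read 9.98 and 9.18 in WT preproNK and 9.57 and 10.41 in KO preproNK, so the genotypes overlapped there, unlike for Cd28. With the replicate block limma called 4 of the 9 in the KO and 1 in WT, and none of the 3 lists had a call between genotypes in preproNK.

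**Figure D5:**
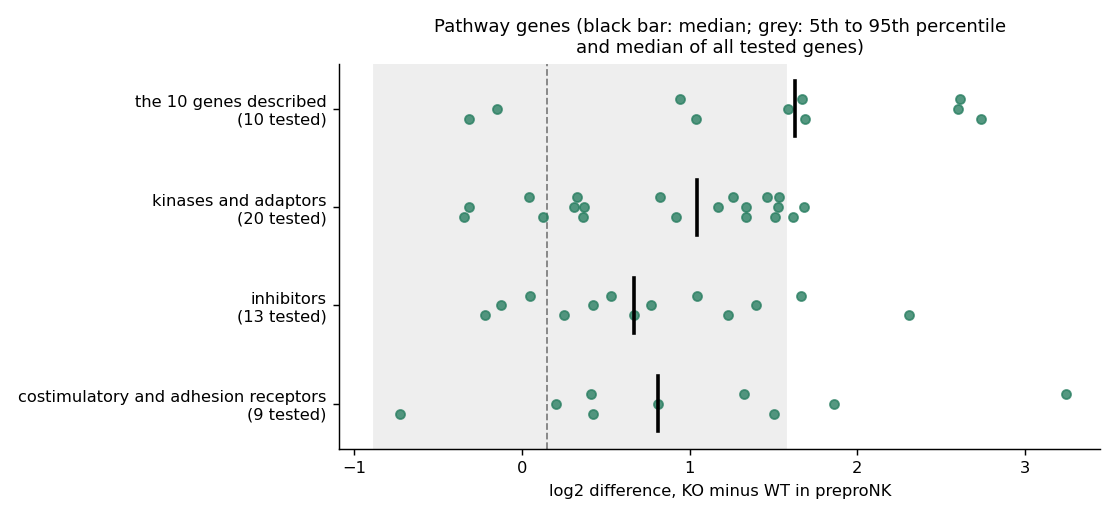
Each point is 1 gene's mean log2 difference, KO minus WT in preproNK (horizontal axis), in the 10 genes described and the 3 pathway lists (vertical axis), with a black bar at each list's median; the grey band spans the 5th to 95th percentile of all 11583 genes tested, from −0.89 to 1.58, and the dashed line is their median. The list medians are 1.63, 1.05, 0.67 and 0.81, and 3 of the 10 genes, Sit1, Cd28 and Cd5, lie above 2.5.

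The genes whose pattern over the 8 arrays was most like the mean of the 10 profiles, each centred on its own mean, were 5830411N06Rik (r = 0.993), S1pr1 (0.992), Cd40lg (0.991), Aqp3 (0.990), Klrk1 (0.989) and Ehd3 (0.989). S1pr1, a receptor for sphingosine 1-phosphate, read 5.83 and 5.34 in WT preproNK and 8.35 and 8.33 in KO preproNK. Cd40lg, the ligand of CD40, read 4.94 and 4.94 in WT preproNK and 7.52 and 6.92 in KO preproNK, and Klrk1, which encodes the receptor NKG2D, 5.62 and 4.48 against 7.79 and 7.26. All 6 were picked from 11583 genes for this likeness, which their values merely describe.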

How the data were processed

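RNA was amplified over 23 cycles and hybridised to Affymetrix arrays, per the labels' protocols. The deposited values are the authors' log2 signals, 1 for each probe set. RMA and Partek are the tools that the submitters' processing notes name, with versions and settings not given in the sources used here. RMA's shared scaling can move levels when 1 array stands apart, and amplification can flatten or widen differences of dim genes. Of 45141 probe sets, 28898 carried 1 gene symbol in the platform annotation, 551 several, and 15692 none or were not listed. Where several single-symbol probe sets read a gene, the one brightest on average was used. Limma 3.58.1 (R 4.3.3; lmFit and eBayes, 1 mean per group, all 8 arrays) tested 11583 genes, with Benjamini-Hochberg adjustment over all of them and a call at an adjusted p under 0.05, and was tested on simulated data. Arrays give no counts, so their number limits the precision.

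The 10 genes, the pathway and marker lists, and the promoter motifs were chosen with earlier results of these data known; the motifs were set with the promoter sequences in view. Named are all 10 genes and, of each pathway list, the genes called (at most 4) or, where none was, the 2 with the smallest p; Rasgrp1 and Icos were named again for comparison. Some genes of the lists were not analysed here. The series design ties the replicate number to a processing date, so the numbers pair the samples; deviations of same-numbered arrays correlated at r = 0.15 to 0.81 between groups. Alternatives were other filters, probe sets and scalings, array weights, the replicate block, each array left out, only the arrays compared, and, chosen after seeing the data, values below an array's median set to it.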

Additional observations from a re-analysis of the deposited data

How the results depend on the processing

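The median difference of the 10 genes kept its sign in every comparison and setting run. Between genotypes in preproNK, where 0 of the 10 were called, the replicate block gave 1, the block without WT preproNK replicate 2 gave 3, and leaving out each array gave 0 to 6; the median of 1.63 became 1.08 with quantile normalization, 1.14 with the block without WT preproNK replicate 2, and 1.09 to 1.99 with an array left out. In ALP the median of −0.093 became −0.016 with centred arrays, −0.12 with quantile normalization and −0.21 to −0.0031 with an array left out, and no setting called any of the 10. From ALP to preproNK in WT, 1 call became 0 with no filter, with every probe set as its own feature, with centred arrays, with array weights and with only the arrays compared, 2 with the block without WT preproNK replicate 2, and 0 to 1 with an array left out. That median of 0.87 became 0.82 with every probe set, 0.78 with centred arrays, 0.95 with quantile normalization, 0.78 with the block without WT preproNK replicate 2, 0.72 with values below the array median set to it, and 0.70 to 1.08 with an array left out. In the KO, 7 calls became 4 with centred arrays and 0 to 8 with an array left out, and the median of 2.63 became 2.24 with every probe set, 2.38 with quantile normalization and 2.37 to 2.85 with an array left out. The interaction's median of 1.71 became 1.25 with quantile normalization, 1.21 with the block without WT preproNK replicate 2, and 1.13 to 2.15 with an array left out. The causes were not tested.

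Over all genes tested, the replicate block moved the calls between genotypes in preproNK from 0 to 10 higher, those from ALP to preproNK in WT from 4 to 31 higher and from 7 to 36 lower, and those in the KO from 141 to 300 higher and from 62 to 149 lower. Centring the arrays moved the median of all genes, KO minus WT in preproNK, from 0.15 to 0.30, and quantile normalization to −0.047, while the median of the 10 genes stayed above it by more than 1. With 2 arrays a group and 1 spread per gene shared by all groups, differences under about 1 log2 unit lay within the intervals. Genes near background, such as Sit1 and Cd28 in ALP, have only a bound there.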
